A study of Mus musculus with 17 samples.

Results

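Livers from which FSP1-expressing cells had been ablated were compared with livers from which aSMA-expressing cells had been ablated, across all genes measured. Both kinds of liver came from mice with fibrosis induced by CCl4, a solvent that kills hepatocytes and scars the liver when given repeatedly. The comparison rests on 7 of the 17 arrays of the series, the 4 titled as FSP1 arrays and the 3 titled as aSMA arrays. They were taken by title, and the comparison was picked with earlier results of these data known. RNA of whole liver was hybridised to Illumina bead arrays, which report 1 intensity per probe. The other 10 arrays, 6 of CCl4-treated liver and 4 of healthy liver, served as reference levels and added to the estimate of the spread between arrays. They were also normalized and filtered together with the 7.

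Per the labels, the FSP1 ablated samples were CCl4-treated and positive for tk with FSP1, the aSMA ablated samples were CCl4-treated and positive for tk with aSMA, the CCl4 samples were treated and negative for tk, and the healthy samples had neither treatment nor tk. The labels name no drug, strain, sex or age and do not say that the arrays of a group are of separate mice, so the p-values measure the spread between these arrays. In mice of this kind, as background, a viral thymidine kinase gene is driven by the promoter of the named marker, and ganciclovir then kills dividing cells that make the enzyme. A cell that carries the marker without dividing is spared, and the promoter decides which cells are at risk.

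As background, scar tissue in liver is laid down mostly by hepatic stellate cells and portal fibroblasts, which turn into contractile myofibroblasts after injury and secrete fibrillar collagens. aSMA, the smooth muscle actin encoded by Acta2, marks these myofibroblasts. FSP1, the calcium-binding protein encoded by S100a4, was introduced as a fibroblast marker, and in injured liver it is also found in cells of the myeloid lineage. Hepatocytes, which make up most of the RNA of the organ, divide to replace lost tissue and take up fetal genes while they do so.

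On each array, 13713 to 16576 of 25697 probes lay above background, and the precision is bounded by how few arrays there are. As deposited, intensities had an upper quartile of 165.4 to 167.8 on the FSP1 ablated arrays, 168.9 to 178.8 on the aSMA ablated arrays and 63.7 to 65.7 on the healthy arrays, so the healthy levels given here rest on the quantile normalization. The probe for Xist, the RNA that silences 1 X chromosome in female cells, read 7.78, 7.36, 7.79 and 8.05 on the 4 FSP1 ablated arrays and 8.40, 8.87 and 9.43 on the 3 aSMA ablated arrays. All 7 arrays lay above the 5.76 to 5.96 of the healthy arrays, and the difference between the ablated groups was -1.15 (SE 0.56, adjusted p = 0.269). That call depended on the model, since Xist differed by -1.39 and passed with array weights (adjusted p = 0.0221), and by -1.19 with the 7 ablated arrays alone (adjusted p = 0.0467). It also passed in limma with CCl4 arrays 1 to 3 and 4 to 6 as separate groups (adjusted p = 0.00383), where the SE was 0.20 in place of 0.56. Without background correction the difference shrank to -0.70 (adjusted p = 0.657), and with a background offset of 16 to -0.69 (adjusted p = 0.655). A second Xist probe differed by -0.60. Over the repeats with 1 array left out the difference was -1.40 to -0.53 and did not pass. Levels are given throughout as log2 normalized intensity, and differences as FSP1 ablated minus aSMA ablated on that log2 scale.

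More genes were lower than higher after FSP1 ablation relative to aSMA ablation. Of 13172 genes tested with limma, 580 passed an adjusted p of 0.05, which is 4.4% of them, with 245 higher (1.86%) and 335 lower (2.54%) in the FSP1 ablated livers. Differences of at least 2-fold were found for 33 of the genes that passed and were higher (0.251% of all tested) and for 121 that were lower (0.919%). The median fold was 1.51 among the genes that rose and 1.76 among those that fell, and the median difference over all genes tested was 0.01. The 4 arrays lay wholly above the 3 for 1475 genes (11.2%) and wholly below for 1600 (12.1%). Of the genes that passed, 568 had no overlap between the groups and 12 did, and 526 lay above background on all 7 arrays. The share of calls that were higher depended on scaling: it was 42.2% here, 28.5% without normalization between arrays (217 higher, 544 lower) and 23.6% with median-centred arrays (196 higher, 633 lower).

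The number of calls also depended on single arrays. In repeats of the same fit with 1 array left out, 77 genes passed without aSMA ablated array 2, 206 without FSP1 ablated array 2, 229 without aSMA ablated array 3, 321 without aSMA ablated array 1 and 367 without FSP1 ablated array 1. Without FSP1 ablated arrays 3 and 4 the counts were 683 and 389. None of the 580 differences changed sign in any of these 7 repeats. For the 568 without overlap between the groups this was all but fixed in advance. Leaving out 1 array cannot reverse groups that lie apart, save through the renewed normalization. The probe for Alb parts all 17 arrays into a low set that holds the FSP1 ablated, the healthy and CCl4 arrays 1 to 3, and a high set that holds the aSMA ablated arrays and CCl4 arrays 4 to 6. With that set as a block, so that the CCl4 arrays bridge the groups, 305 genes passed and 122 of the 580 were among them, all with the same sign. Of the 94 named genes that passed, 29 kept the call with this block. They were S100a3, Ank, Extl1, Slc6a9, Cux2, Cyp2c55, Gsta1, Prc1, Lgals1, H2ac24, H2ac10, H2ac22, Birc5, Nusap1, Kif22, Tk1, Uhrf1, Lig1, E2f1, Anxa5, Bex3, Mgst3, S100a6, S100a11, Krt8, Krt18, Khk, Rhbg and Hao2. Xist differed by -3.37 with the block (adjusted p = 6.93e-05), in place of -1.15 without it. The block is estimated from the CCl4 arrays alone. Each difference with it therefore also carries the difference between CCl4 arrays 1 to 3 and 4 to 6, and is not a reading of the 7 ablated arrays only. The Alb set was read from the values and not from the labels, and values with it as a block stand beside several lists below.

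**Figure D1:**
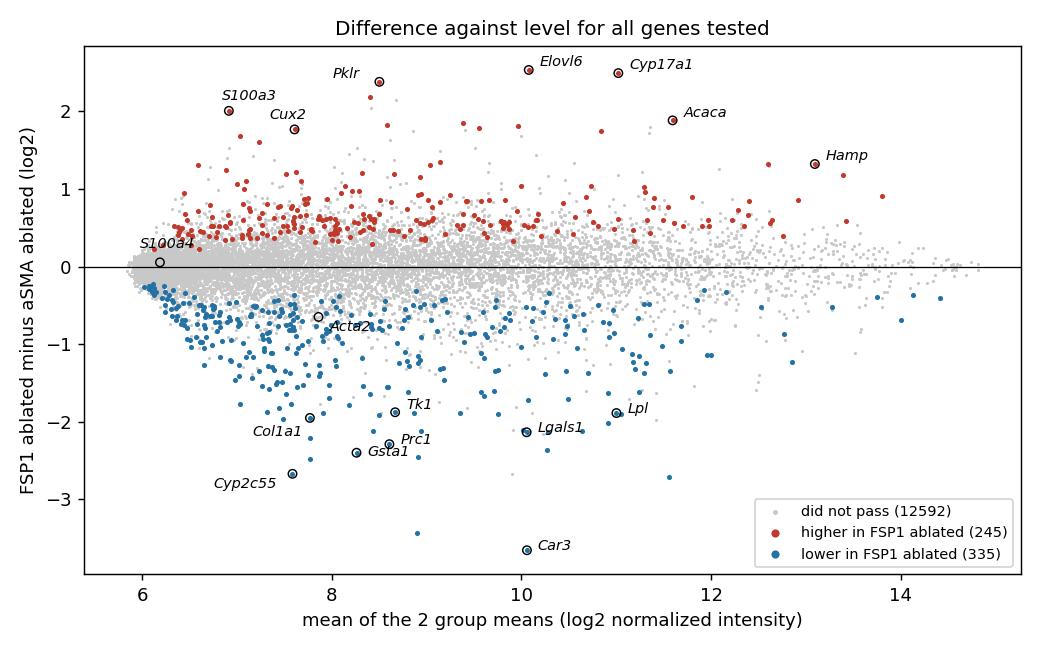
Difference between the FSP1 ablated and the aSMA ablated group (vertical axis, log2) against the mean of both group means (horizontal axis, log2 normalized intensity) for each of 13172 genes, with the 245 genes that rose in red, the 335 that fell in blue and named genes circled. The falls reach -3.65 for Car3 and the rises 2.53 for Elovl6, while S100a4 and Acta2 lie among the genes that did not pass.

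The genes were also read in 51 lists of pathway genes and cell type markers with 1085 measured members. Genes of mitosis had the lowest median, followed by those of cholesterol synthesis, scar matrix and DNA replication. Rises were fewer, with 4 in fatty acid synthesis and 3 among cytochrome P450 and phase II genes. Sugar metabolism, the TGF-beta pathway and the female-biased genes held 2 each. Counts for each list are read against the 1.86% and 2.54% of all genes that rose and fell, and are descriptions of these lists and not tests.

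**Figure D2:**
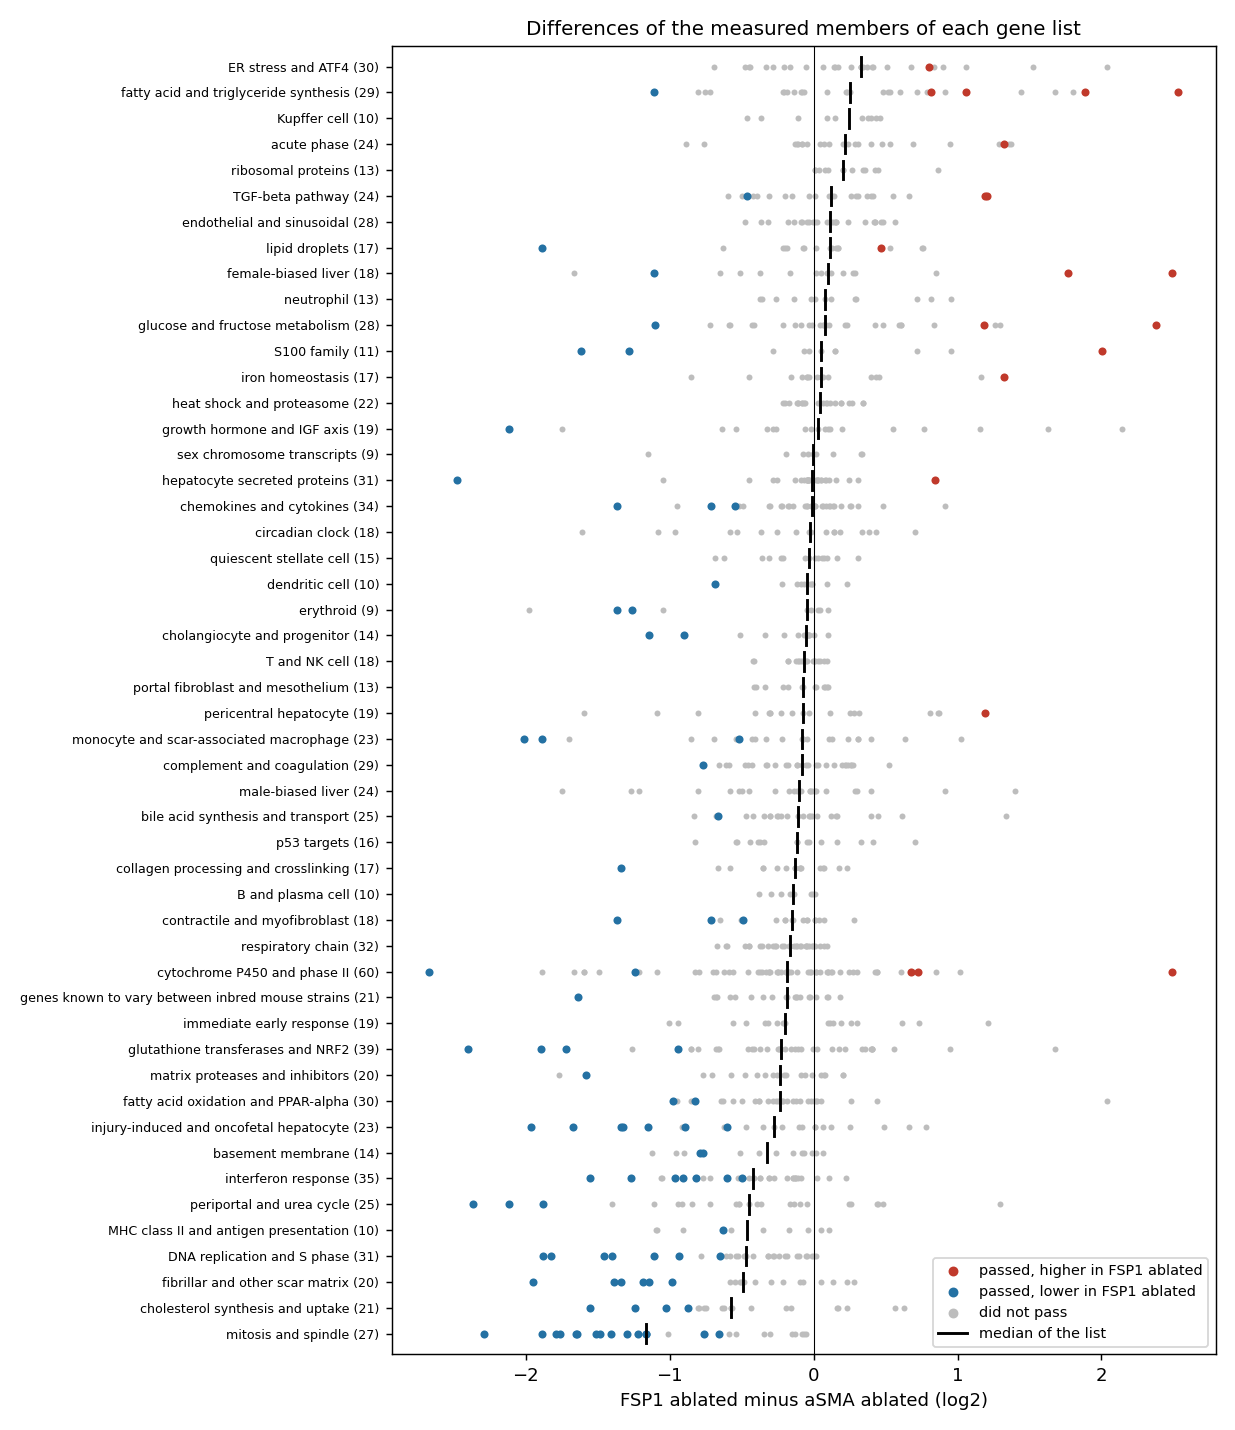
Differences (horizontal axis, log2) of the measured members of 50 gene lists with 9 or more measured members, 1 point per gene and 1 row per list, with the number measured in parentheses and the list's median as a black bar. The mitosis list has the lowest median, -1.16, with 15 of 27 members lower, and the list for endoplasmic reticulum stress has the highest, 0.33, with 1 of 30 members higher.

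The genes of the 2 ablated markers did not separate the groups. S100a4 read 6.23, 6.14, 6.26 and 6.22 on the 4 FSP1 ablated arrays and 6.13, 6.24 and 6.11 on the 3 aSMA ablated arrays, close to background and with overlap, and its difference was 0.05 (SE 0.07, adjusted p = 0.749). Its range was 6.15 to 6.35 on the CCl4 arrays and 6.09 to 6.40 on the healthy arrays, so this probe registered no group and does not check the label. Acta2 read 7.84, 7.47, 7.07 and 7.76 on the 4 FSP1 ablated arrays and 7.74, 9.34 and 7.47 on the 3 aSMA ablated arrays. The aSMA ablated arrays 1 and 3 lay within the range of the FSP1 ablated arrays, array 2 lay above all of them, and the difference was -0.65 (SE 0.52, adjusted p = 0.537). All 7 arrays but aSMA ablated array 2 lay below the 9.18 to 11.35 of the CCl4 arrays, and the healthy arrays read 6.98 to 8.62. Without aSMA ablated array 2 the difference in Acta2 was -0.07. Its other, dimmer probes differed by -0.31, -0.16 and 0.04. With the Alb set as a block the difference was -1.87 and did not pass (adjusted p = 0.174).

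S100a3, which encodes another calcium-binding S100 protein known from hair cuticle, was the gene with the clearest rise by p. It read 7.95, 7.82, 8.21 and 7.68 on the 4 FSP1 ablated arrays and 5.99, 5.85 and 5.88 on the 3 aSMA ablated arrays, and the FSP1 ablated arrays stood alone, since the CCl4 arrays read 5.81 to 6.10 and the healthy arrays 5.88 to 6.07. The probe was above background on all 4 FSP1 ablated arrays and on none of the 3 aSMA ablated arrays, so the fold is a bound, at least 3.70-fold higher (adjusted p = 3.67e-08). The call held without each of the 7 arrays in turn. In the RefSeq annotation of GRCm38.p6, S100a3 and S100a4 are direct neighbours on chromosome 3, followed by S100a5 and S100a6. S100a6, which binds calcium in proliferating fibroblasts and epithelial cells, went the other way, reading 8.76, 7.90, 7.44 and 8.61 on the 4 FSP1 ablated arrays and 9.39, 9.93 and 9.06 on the 3 aSMA ablated arrays with no overlap and a difference of -1.28 (SE 0.32, adjusted p = 0.0361). S100a11, a partner of annexins, was also lower (9.35 to 10.86 on the FSP1 ablated arrays and 11.47 to 12.67 on the aSMA ablated arrays), with a difference of -1.61 (SE 0.36, adjusted p = 0.0232). Of 11 measured S100 genes, 1 rose and 2 fell, and the median was 0.05. S100a6 missed the threshold without FSP1 ablated arrays 2 and 3 and aSMA ablated arrays 1, 2 and 3 (adjusted p up to 0.182), and S100a11 missed the threshold without aSMA ablated arrays 2 and 3 (adjusted p up to 0.136).

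Scar collagens were lower after FSP1 ablation than after aSMA ablation. Col1a1, the main chain of scar collagen, read 7.43, 6.55, 6.65 and 6.55 on the 4 FSP1 ablated arrays and 8.54, 9.66 and 8.03 on the 3 aSMA ablated arrays. All FSP1 ablated arrays lay below all aSMA ablated arrays and, like these, above the 5.92 to 6.02 of the healthy arrays, and the fall was 3.86-fold, a difference of -1.95 (SE 0.36, adjusted p = 0.00900). The CCl4 arrays read 8.26 to 9.69, about the span of the aSMA ablated arrays. In whole liver, fewer cells of a type and less RNA per cell cannot be told apart.

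Col3a1, the second fibrillar collagen of scars, read 7.08, 6.16, 6.49 and 6.51 on the 4 FSP1 ablated arrays and 8.01, 8.23 and 7.46 on the 3 aSMA ablated arrays, a difference of -1.34 (SE 0.29, adjusted p = 0.0180). Col5a1, which seeds collagen fibrils, read 8.24, 7.50, 7.57 and 7.59 on the 4 FSP1 ablated arrays and 8.95, 9.26 and 8.50 on the 3 aSMA ablated arrays, a difference of -1.18 (SE 0.21, adjusted p = 0.00838). Col6a2, a chain of the microfibrillar collagen VI, read 6.81, 6.49, 6.47 and 6.51 on the 4 FSP1 ablated arrays and 7.77, 7.96 and 6.93 on the 3 aSMA ablated arrays, a difference of -0.98 (SE 0.21, adjusted p = 0.0196). In each of these the groups did not overlap, FSP1 ablated array 1 was the highest of its group, and aSMA ablated array 3 was the lowest of its own. Col6a1 and Sparc, a matricellular protein that binds collagen, also fell. Of the 20 measured genes of the scar matrix list, 6 fell and 0 rose, with a median of -0.49 against 0.01 for all genes. The 14 that did not pass included the small proteoglycan genes Bgn, Dcn and Lum, and the mean over the list overlapped between the groups, at 7.72 to 8.24 on the FSP1 ablated and 8.12 to 8.73 on the aSMA ablated arrays. All 6 calls were lost with the Alb set as a block, where the median was -0.24, with differences of -1.39 for Col1a1 (adjusted p = 0.202) and -0.67 for Col3a1 (adjusted p = 0.431). Without aSMA ablated array 2 all 6 calls were lost, with an adjusted p of 0.0639 for Col1a1 and 0.0642 for Col5a1. Col3a1 missed the threshold without FSP1 ablated array 2 and aSMA ablated arrays 1 and 2 (adjusted p up to 0.112), and Col6a2 missed the threshold without FSP1 ablated array 2 and aSMA ablated arrays 1 and 2 (adjusted p up to 0.125).

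Genes that process collagen and break down matrix were lower in a few cases. Pcolce, which enhances the cutting of procollagen into its fibril-forming shape, read 6.89, 6.76, 6.60 and 6.63 on the 4 FSP1 ablated arrays and 7.93, 8.24 and 8.01 on the 3 aSMA ablated arrays. The FSP1 ablated arrays lay at the level of the healthy arrays, 6.55 to 6.91, and the aSMA ablated arrays within that of the CCl4 arrays, 7.33 to 8.41, with a difference of -1.34 (SE 0.20, adjusted p = 0.00325). It was the 1 of 17 measured genes of collagen processing and crosslinking to pass, and it passed without each of the 7 arrays in turn. Its difference with the Alb set as a block was -0.79 and the call was lost (adjusted p = 0.0821). Plau, the urokinase that activates plasminogen, read 6.60, 6.51, 6.53 and 6.56 on the 4 FSP1 ablated arrays and 7.58, 8.70 and 8.11 on the 3 aSMA ablated arrays, a difference of -1.58 (SE 0.29, adjusted p = 0.00884). The 4 FSP1 ablated arrays were nearly alike and at the healthy range of 6.28 to 6.68, while the aSMA ablated arrays spanned 1.13 log2 units. Plau missed the threshold without aSMA ablated array 2 (adjusted p up to 0.0672). Of 20 measured proteases and inhibitors, Plau alone passed. Timp1, which inhibits matrix metalloproteinases, read 7.61, 7.02, 6.40 and 7.20 on the 4 FSP1 ablated arrays and 7.93, 8.04 and 7.49 on the 3 aSMA ablated arrays and its groups overlapped (difference -0.77, SE 0.30, adjusted p = 0.156). Mmp12, the elastase of macrophages, did not overlap between the groups, at 6.55 to 7.74 on the FSP1 ablated arrays and 8.55 to 9.02 on the aSMA ablated arrays, and missed the threshold (-1.77, SE 0.52, adjusted p = 0.0661).

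Of the 14 measured basement membrane genes, which line vessels and bile ducts, 2 fell and the median was -0.32. Nid2, a nidogen that links laminin with collagen IV, read 6.98, 6.58, 6.72 and 6.24 on the 4 FSP1 ablated arrays and 7.38, 7.55 and 7.26 on the 3 aSMA ablated arrays, a difference of -0.77 (SE 0.15, adjusted p = 0.0125). Col4a5, a chain of collagen IV, read 6.56, 6.17, 6.19 and 6.15 on the 4 FSP1 ablated arrays and 6.72, 7.35 and 7.09 on the 3 aSMA ablated arrays, a difference of -0.79 (SE 0.19, adjusted p = 0.0322). The groups did not overlap for either gene. Nid1 and Col4a1, a second nidogen and the most widespread collagen IV chain, also did not overlap, with differences of -1.12 and -0.95, and missed the threshold at adjusted p = 0.0568 and 0.0546. Nid2 missed the threshold without aSMA ablated array 2 (adjusted p up to 0.0840), and Col4a5 missed the threshold without FSP1 ablated arrays 2 and 4 and aSMA ablated arrays 2 and 3 (adjusted p up to 0.177). Nid1 passed without aSMA ablated array 1 (adjusted p = 0.0364).

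**Figure D3:**
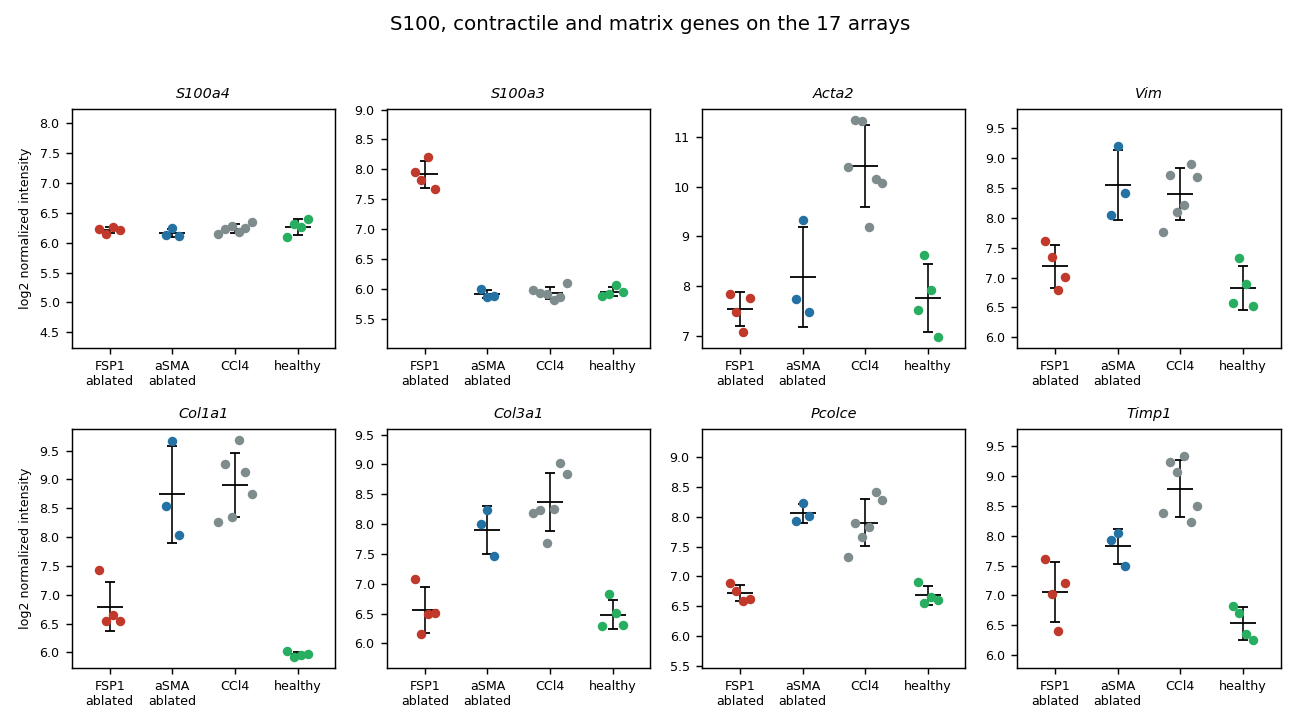
Level (vertical axis, log2 normalized intensity, each panel with its own range of at least 4 units) of S100, contractile and matrix genes on each of the 17 arrays, grouped along the horizontal axis, with the mean and SD of each group in black. S100a3 is high on the 4 FSP1 ablated arrays only, S100a4 is flat, Acta2 and Timp1 overlap between the ablated groups, and Col1a1, Col3a1, Pcolce and Vim are lower on the FSP1 ablated arrays.

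Among 18 measured contractile and cytoskeletal genes, 3 fell and 0 rose, with a median of -0.15. Vim, the intermediate filament protein of mesenchymal cells, read 7.61, 7.34, 6.79 and 7.01 on the 4 FSP1 ablated arrays and 8.06, 9.20 and 8.41 on the 3 aSMA ablated arrays, a difference of -1.37 (SE 0.31, adjusted p = 0.0232). Myh9, a nonmuscle myosin heavy chain made by most cells, read 10.45, 10.55, 10.48 and 10.53 on the 4 FSP1 ablated arrays and 11.27, 11.30 and 11.08 on the 3 aSMA ablated arrays. Its arrays were tight, spanning 0.10 log2 units in the FSP1 ablated and 0.22 in the aSMA ablated group, and the difference was -0.71 (SE 0.13, adjusted p = 0.00810). Cnn2, a calponin that binds actin, differed by -0.49 (SE 0.10, adjusted p = 0.0157). Vim missed the threshold without FSP1 ablated arrays 2 and 4 and aSMA ablated arrays 2 and 3 (adjusted p up to 0.136), and Myh9 and Cnn2 missed it without aSMA ablated array 2 (adjusted p = 0.0539 and 0.104). None of these 3 is restricted to myofibroblasts. Of 15 measured markers of quiescent stellate cells 0 passed with limma, 4 lay under an unadjusted p of 0.05, and the median was -0.03. Of 13 markers of portal fibroblasts and mesothelium 0 passed, 1 lay under that unadjusted p, and the median was -0.07. Over all genes tested 20% did. Reln, which stellate cells secrete, read 11.46 to 11.96 on the FSP1 ablated arrays and 12.24 to 12.46 on the aSMA ablated arrays without overlap and a difference of -0.69 (SE 0.27, adjusted p = 0.156).

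In the TGF-beta pathway, the main signal that drives myofibroblasts to make collagen, 2 of 24 measured genes rose and 1 fell, with a median of 0.12. Inhba, a subunit of the ligand activin A, read 9.18, 9.22, 8.65 and 8.65 on the 4 FSP1 ablated arrays and 7.72, 7.97 and 7.47 on the 3 aSMA ablated arrays, a difference of 1.21 (SE 0.32, adjusted p = 0.0441). Skil, a SMAD-binding repressor that is itself induced by the pathway, read 9.22, 9.51, 9.0 and 9.27 on the 4 FSP1 ablated arrays and 8.17, 8.09 and 7.93 on the 3 aSMA ablated arrays, a difference of 1.19 (SE 0.30, adjusted p = 0.0384). Both were higher on every FSP1 ablated array than on any aSMA ablated array. The ligand gene Tgfb1 lay lower without overlap (6.89 to 7.02 on the FSP1 ablated arrays and 7.35 to 7.58 on the aSMA ablated arrays) and did not pass (-0.50, SE 0.16, adjusted p = 0.0831). Ltbp3, which tethers latent TGF-beta to the matrix, read 6.65 to 6.90 on the FSP1 ablated arrays and 6.98 to 7.40 on the aSMA ablated arrays, a difference of -0.46 (SE 0.12, adjusted p = 0.0438), and its second probe differed by -0.02. Each of these 3 calls was lost in 6 of the 7 repeats. Inhba missed the threshold without FSP1 ablated arrays 1, 2 and 4 and aSMA ablated arrays 1, 2 and 3 (adjusted p up to 0.148), Skil missed the threshold without FSP1 ablated arrays 1, 2 and 4 and aSMA ablated arrays 1, 2 and 3 (adjusted p up to 0.133), and Ltbp3 missed the threshold without FSP1 ablated arrays 1, 2, 3 and 4 and aSMA ablated arrays 1 and 2 (adjusted p up to 0.175). With the Alb set as a block the differences in Inhba and Skil were 0.24 and 0.14.

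Many cell division genes were lower after FSP1 ablation. All 27 measured genes of mitosis and spindle had differences below 0, 15 of them fell, and the median was -1.16. The mean over the list was 6.28 to 6.92 on the FSP1 ablated arrays, close to the 6.20 to 6.44 of the healthy arrays. It was 7.30 to 7.81 on the aSMA ablated arrays and 7.69 to 8.92 on the CCl4 arrays. Of 31 measured genes of DNA replication 29 had differences below 0 and 7 fell, with a median of -0.47.

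Promoter sequences of genes from the mitosis, DNA replication and cholesterol synthesis lists are shown. Most measured members of each had differences below 0. This also held for lists that were not searched, such as the interferon response genes with 32 of 35. Whether the members of a list share regulation was not tested. The windows are the 250 bases before the RefSeq start in GRCm38.p6, written along the gene's strand. They were searched on both strands for CHR (TTTGAA or TTCGAA), an element known from late cell cycle genes, for CCAAT, bound by NF-Y, for E2F (TTTGGCGC, TTTCCCGC, TTTGCCGC or TTTCGCGC), and for SRE (TCACNCCAC), the element of sterol-regulated genes. None of these motifs contains another. Capitals mark matches, as CHR and CCAAT in Prc1 (chr7:80294226-80294475, plus strand) and Kif22 (chr7:127042421-127042670, minus strand), E2F and CCAAT in Uhrf1 (chr17:56304063-56304312, plus strand), and SRE and CCAAT in Hmgcs1 (chr13:119690101-119690350, plus strand). The windows shown were picked because they hold these letters, and Prc1 and Uhrf1 each have a second window that is not shown.
Prc1: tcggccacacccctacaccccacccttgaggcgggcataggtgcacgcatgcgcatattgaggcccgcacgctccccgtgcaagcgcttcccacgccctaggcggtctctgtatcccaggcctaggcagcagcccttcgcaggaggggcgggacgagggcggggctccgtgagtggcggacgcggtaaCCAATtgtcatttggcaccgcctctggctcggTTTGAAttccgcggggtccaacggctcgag
Kif22: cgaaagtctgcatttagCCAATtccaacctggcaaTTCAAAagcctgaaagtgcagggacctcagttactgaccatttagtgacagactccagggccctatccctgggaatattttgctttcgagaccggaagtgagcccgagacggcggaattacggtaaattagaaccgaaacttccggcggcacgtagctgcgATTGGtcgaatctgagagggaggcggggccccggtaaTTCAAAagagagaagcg
Uhrf1: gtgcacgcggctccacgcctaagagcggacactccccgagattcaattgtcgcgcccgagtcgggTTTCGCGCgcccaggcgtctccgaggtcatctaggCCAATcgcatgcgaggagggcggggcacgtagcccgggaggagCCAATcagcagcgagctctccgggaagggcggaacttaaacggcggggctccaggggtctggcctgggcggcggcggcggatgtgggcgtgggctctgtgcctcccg
Hmgcs1: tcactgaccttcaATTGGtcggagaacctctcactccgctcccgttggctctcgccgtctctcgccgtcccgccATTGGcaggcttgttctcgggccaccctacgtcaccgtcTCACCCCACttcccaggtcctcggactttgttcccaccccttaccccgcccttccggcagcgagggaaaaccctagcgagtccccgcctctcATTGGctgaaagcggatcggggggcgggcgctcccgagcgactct

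Windows were matched for 23 of the 27 mitosis genes, 28 of the 31 replication genes and 18 of the 21 cholesterol genes. CHR was found for 10 of the 23 mitosis genes (43.5%), against 19.6% of 27025 genes with a window, and CCAAT for 16 of them (69.6%), against 37.5%. E2F was found for 5 of the 28 replication genes (17.9%), against 2.16% of all, and for 1 of the mitosis genes. Among the replication genes CHR was found for 5 (17.9%), below the share of all genes, and CCAAT for 15 (53.6%). In the Prc1 window CHR lies 30 to 25 bases before the start and CCAAT 62 to 58 bases before it. In the Uhrf1 window E2F lies 185 to 178 bases before the start. These are matches of letters and not binding sites, and a window without a match says nothing about the factor.

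Prc1, which bundles microtubules at the midzone of the dividing cell, read 8.57, 6.88, 6.27 and 8.13 on the 4 FSP1 ablated arrays and 9.23, 10.26 and 9.77 on the 3 aSMA ablated arrays. The FSP1 ablated arrays varied widely, array 3 lay within the 6.13 to 6.51 of the healthy arrays, and all lay below the aSMA ablated arrays, with a fall of 4.88-fold, a difference of -2.29 (SE 0.50, adjusted p = 0.0201). Birc5, the survivin of the chromosomal passenger complex, read 7.83, 6.43, 6.35 and 7.25 on the 4 FSP1 ablated arrays and 8.67, 9.07 and 8.83 on the 3 aSMA ablated arrays, a difference of -1.89 (SE 0.37, adjusted p = 0.0106), and its other 2 probes differed by -1.48 and -1.62. Nusap1, a spindle protein, read 7.31, 6.37, 6.16 and 6.90 on the 4 FSP1 ablated arrays and 8.10, 8.86 and 8.39 on the 3 aSMA ablated arrays. Its groups did not overlap and differed by -1.76 (SE 0.32, adjusted p = 0.00845), while a dimmer second probe differed by -0.07. Kif22, a kinesin that moves chromosome arms, read 6.36 to 7.13 on the FSP1 ablated arrays and 7.92 to 8.12 on the aSMA ablated arrays, a difference of -1.29 (SE 0.25, adjusted p = 0.0115). Stmn1, which destabilises microtubules, read 5.91 to 6.63 on the FSP1 ablated arrays and 7.06 to 7.67 on the aSMA ablated arrays, was above background on 2 of the 4 FSP1 ablated arrays, and differed by -1.16 (SE 0.20, adjusted p = 0.00583). On FSP1 ablated arrays 2 and 3 each of these 5 genes was lower than on arrays 1 and 4.

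The other genes of the mitosis list that fell were Cdc20, Cdca3, Cdk1, Plk1, Anln, Top2a, Kif2c, Aurka, Kif11 and Foxm1. Stmn1 passed without each array in turn. Prc1 missed the threshold without FSP1 ablated array 2 and aSMA ablated arrays 2 and 3 (adjusted p up to 0.116), and Birc5, Nusap1 and Kif22 missed it without aSMA ablated array 2 (adjusted p = 0.0672, 0.0642 and 0.0674). Without aSMA ablated array 2, 1 of the 27 passed, and without FSP1 ablated array 2 or aSMA ablated array 3, 4 did. With the Alb set as a block 21 of the 27 fell. The mean over the list was 8.55, 8.55 and 8.92 on CCl4 arrays 1 to 3 and 7.69, 8.08 and 8.06 on CCl4 arrays 4 to 6. The block carries this split into the comparison, so the higher count is no stronger result for the ablated arrays.

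Tk1, the mouse's own cytosolic thymidine kinase of S phase and not the viral gene of the ablation, read 7.67, 6.88, 8.54 and 7.83 on the 4 FSP1 ablated arrays and 9.43, 9.61 and 9.78 on the 3 aSMA ablated arrays. The FSP1 ablated arrays spanned 1.66 log2 units and stayed below the aSMA ablated arrays, with a difference of -1.88 (SE 0.26, adjusted p = 0.00188). Its 2 dimmer probes differed by -0.76 and -0.20. Uhrf1, which carries DNA methylation through replication, read 6.77, 6.51, 6.32 and 6.51 on the 4 FSP1 ablated arrays and 7.81, 8.98 and 8.27 on the 3 aSMA ablated arrays, a difference of -1.83 (SE 0.28, adjusted p = 0.00349). Here all FSP1 ablated arrays lay near the 6.04 to 6.41 of the healthy arrays. Lig1, the ligase that joins Okazaki fragments, read 6.85, 6.74, 7.07 and 6.61 on the 4 FSP1 ablated arrays and 7.87, 7.99 and 7.92 on the 3 aSMA ablated arrays, a difference of -1.11 (SE 0.17, adjusted p = 0.00349), and its 3 dimmer probes differed by -0.16 to -0.36. E2f1, a transcription factor that opens S phase, read 6.95, 6.57, 6.78 and 6.91 on the 4 FSP1 ablated arrays and 7.81, 7.87 and 7.53 on the 3 aSMA ablated arrays, a difference of -0.93 (SE 0.11, adjusted p = 0.000501). All 4 of these calls held without each array in turn. Mcm5, Mcm6 and Chaf1a also fell. Pcna and Mcm7 did not pass. Without aSMA ablated array 2, 4 of the 31 passed, and with the Alb set as a block 13 fell.

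Replication-dependent histone genes were among the 15 genes with the largest falls. H2ac24 read 9.59, 9.10, 9.09 and 9.07 on the 4 FSP1 ablated arrays and 10.95, 11.71 and 11.38 on the 3 aSMA ablated arrays, a difference of -2.13 (SE 0.45, adjusted p = 0.0175). H2ac10 and H2ac22, also for histone H2A, differed by -2.12, adjusted p = 0.0139 and -2.12, adjusted p = 0.00930. In all 3 the groups did not overlap, with a gap of 1.35 log2 units for H2ac24 between the highest FSP1 ablated and the lowest aSMA ablated array. These genes are near-identical copies, so their probes may read one another's transcripts and the 3 are not independent. H2ac24 missed the threshold without FSP1 ablated array 2 and aSMA ablated arrays 2 and 3 (adjusted p up to 0.102), and H2ac10 and H2ac22 missed it without aSMA ablated array 2 (adjusted p = 0.0842 and 0.0651).

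**Figure D4:**
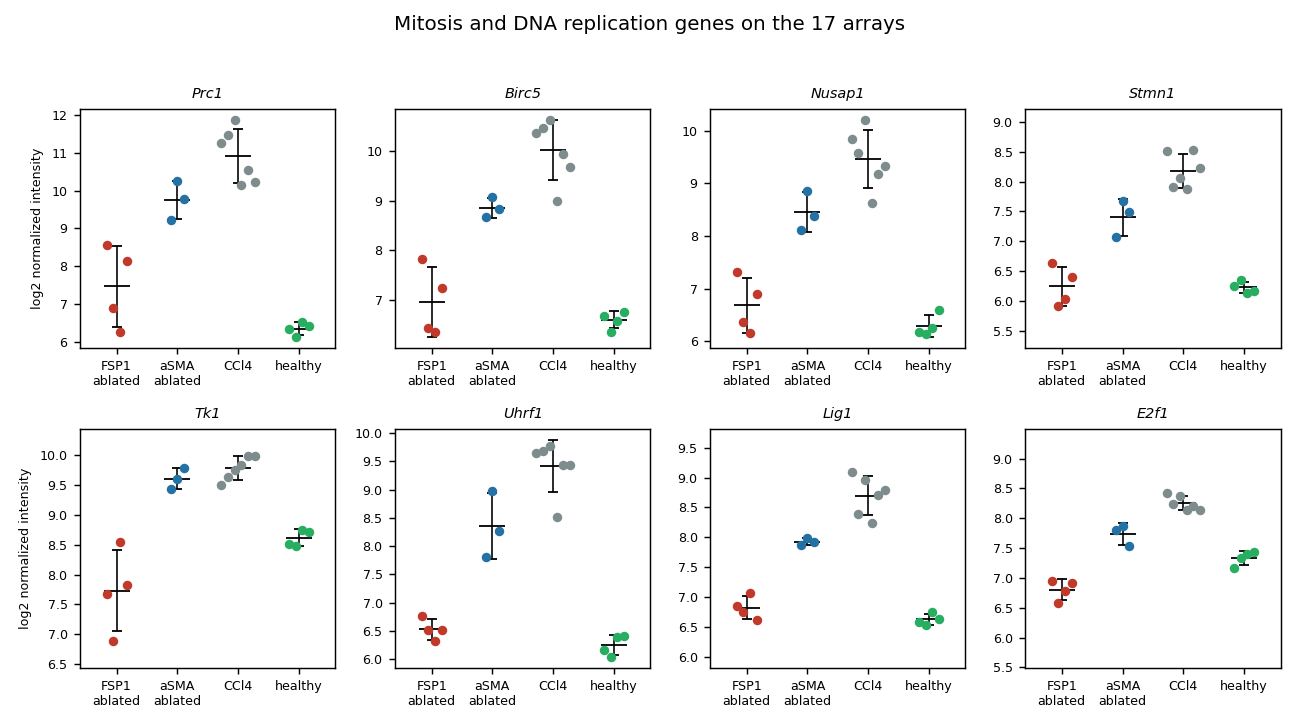
Level (vertical axis, log2 normalized intensity, each panel with its own range of at least 4 units) of mitosis genes (upper panels) and replication genes (lower panels) on each of the 17 arrays, grouped along the horizontal axis, with the mean and SD of each group in black. For each gene the FSP1 ablated arrays lie below the aSMA ablated arrays, and the CCl4 arrays reach highest.

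Among 23 measured genes that hepatocytes take up after injury or in fetal life, 7 fell, 0 rose and 16 did not pass. Differences were below 0 for 15 and above 0 for 8, with a median of -0.27, and 4 to 5 of them fell in each repeat with an array left out. Afp, the fetal counterpart of albumin, read 7.15, 6.27, 5.92 and 6.67 on the 4 FSP1 ablated arrays and 8.56, 8.34 and 8.48 on the 3 aSMA ablated arrays. It was above background on 3 of the 4 FSP1 ablated arrays, the healthy arrays read 5.92 to 6.11, and the difference was -1.96 (SE 0.32, adjusted p = 0.00519). Golm1, a Golgi protein raised in human liver disease, read 9.02, 8.83, 8.23 and 9.02 on the 4 FSP1 ablated arrays and 9.79, 11.13 and 10.40 on the 3 aSMA ablated arrays, a difference of -1.67 (SE 0.27, adjusted p = 0.00519). Anxa5, which binds phosphatidylserine, read 10.87, 10.68, 10.30 and 10.79 on the 4 FSP1 ablated arrays and 11.59, 12.23 and 11.60 on the 3 aSMA ablated arrays, a difference of -1.15 (SE 0.16, adjusted p = 0.00205). Bex3, an adaptor protein, read 7.38, 7.26, 6.89 and 7.18 on the 4 FSP1 ablated arrays and 8.10, 8.14 and 7.98 on the 3 aSMA ablated arrays, a difference of -0.89 (SE 0.10, adjusted p = 0.000501). For each of these 4 the groups did not overlap and the call held without each array in turn. Anxa2, Anxa3 and Akr1b8 also fell.

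Lgals1, a galactoside-binding lectin of mesenchymal and immune cells, read 9.77, 8.83, 8.56 and 8.79 on the 4 FSP1 ablated arrays and 11.14, 11.12 and 11.11 on the 3 aSMA ablated arrays. The aSMA ablated arrays spanned 0.02 log2 units, all FSP1 ablated arrays lay below them, and the difference was -2.13 (SE 0.25, adjusted p = 0.000501), a call that held without each array. Lgals3, the galectin of macrophages, read 10.69, 9.92, 9.13 and 9.90 on the 4 FSP1 ablated arrays and 11.93, 11.78 and 12.05 on the 3 aSMA ablated arrays, a difference of -2.01 (SE 0.51, adjusted p = 0.0384), and Lgals3 missed the threshold without FSP1 ablated arrays 2, 3 and 4 and aSMA ablated arrays 1, 2 and 3 (adjusted p up to 0.125). Krt8 and Krt18, the paired keratins of hepatocytes and bile duct cells, differed by -1.14, adjusted p = 0.0178 for Krt8 and -0.90, adjusted p = 0.0319 for Krt18. They were the 2 of 14 measured genes of the cholangiocyte list to pass. The list's median was -0.06. Krt8 missed the threshold without aSMA ablated array 2 (adjusted p up to 0.116), and Krt18 missed the threshold without FSP1 ablated arrays 1, 3 and 4 and aSMA ablated arrays 1 and 2 (adjusted p up to 0.177). Spink1, a trypsin inhibitor, read 8.36, 7.52, 6.61 and 8.23 on the 4 FSP1 ablated arrays and 10.09, 10.11 and 10.21 on the 3 aSMA ablated arrays, a difference of -2.46 (SE 0.38, adjusted p = 0.00386), against 6.03 to 6.31 on the healthy arrays, and its call held in each repeat. Spon2, a secreted matrix protein that takes part in innate immunity, read 8.12 to 9.89 on the FSP1 ablated arrays and 10.68 to 11.26 on the aSMA ablated arrays, a difference of -2.10 (SE 0.46, adjusted p = 0.0206), and Spon2 missed the threshold without FSP1 ablated array 2 and aSMA ablated arrays 1 and 2 (adjusted p up to 0.105).

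Of 35 measured interferon response genes 32 had differences below 0, 7 fell and 0 rose, with a median of -0.42. Oas1g, an antiviral oligoadenylate synthetase, read 7.50, 7.22, 8.47 and 8.04 on the 4 FSP1 ablated arrays and 9.08, 9.65 and 9.34 on the 3 aSMA ablated arrays, a difference of -1.55 (SE 0.38, adjusted p = 0.0350), but its 2 other probes differed by -0.83 and 0.01. Oasl2, an oligoadenylate synthetase-like protein, read 7.11 to 7.67 on the FSP1 ablated arrays and 8.17 to 8.76 on the aSMA ablated arrays, a difference of -0.96 (SE 0.25, adjusted p = 0.0419). Dhx58, a helicase that senses viral RNA, read 6.77 to 7.50 on the FSP1 ablated arrays and 7.81 to 8.08 on the aSMA ablated arrays, a difference of -0.81 (SE 0.21, adjusted p = 0.0419). Gbp2, an interferon-induced GTPase, read 7.81, 7.58, 7.62 and 7.54 on the 4 FSP1 ablated arrays and 8.23, 8.41 and 8.09 on the 3 aSMA ablated arrays, a difference of -0.60 (SE 0.12, adjusted p = 0.0148). The groups did not overlap for these 4 genes, and Isg15, Usp18 and Ifit2 fell too. All 7 calls were lost without aSMA ablated array 2. The count was 1 without FSP1 ablated array 1, 2 or 4 or aSMA ablated array 3, and 8 without FSP1 ablated array 3. Over the 7 repeats the difference was -1.76 to -1.36 in Oas1g, -1.065 to -0.77 in Oasl2 and -0.92 to -0.68 in Dhx58. With the Alb set as a block all 7 calls were lost and the median was -0.13. Ly6e, an interferon-induced surface protein and the 1 of 21 measured genes known to vary between inbred strains to pass, read 10.03, 9.82, 10.46 and 10.09 on the 4 FSP1 ablated arrays and 11.34, 12.02 and 11.84 on the 3 aSMA ablated arrays, a difference of -1.63 (SE 0.32, adjusted p = 0.0125), and Ly6e missed the threshold without aSMA ablated arrays 2 and 3 (adjusted p up to 0.0818).

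Markers of immune cells changed in few members. In the MHC class II list 1 of 10 measured genes fell and the median was -0.46. H2-DMa, which loads peptides, read 6.77 to 7.30 on the FSP1 ablated arrays and 7.50 to 8.16 on the aSMA ablated arrays, a difference of -0.63 (SE 0.17, adjusted p = 0.0435), and H2-DMa missed the threshold without FSP1 ablated arrays 1, 2 and 4 and aSMA ablated arrays 1, 2 and 3 (adjusted p up to 0.174). H2-Ab1, a class II chain, read 8.25 to 9.20 on the FSP1 ablated arrays and 9.61 to 10.16 on the aSMA ablated arrays without overlap and missed the threshold (-1.09, SE 0.30, adjusted p = 0.0519), but passed without FSP1 ablated array 3 (adjusted p = 0.0402). Of 23 measured genes of monocytes and scar-associated macrophages 3 fell, with a median of -0.08. Lpl, the lipoprotein lipase of macrophages and of injured liver, read 10.74, 9.60, 9.85 and 10.04 on the 4 FSP1 ablated arrays and 11.71, 12.37 and 11.75 on the 3 aSMA ablated arrays. The FSP1 ablated arrays lay between the 7.99 to 9.44 of the healthy and the 11.76 to 12.47 of the CCl4 arrays, the difference was -1.89 (SE 0.31, adjusted p = 0.00492), and the call held in each repeat. Ctsb, a lysosomal protease, differed by -0.52 (SE 0.13, adjusted p = 0.0361), and Ctsb missed the threshold without FSP1 ablated arrays 1, 2 and 3 and aSMA ablated arrays 1, 2 and 3 (adjusted p up to 0.131). The third gene was Lgals3.

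Among 34 measured chemokine and cytokine genes 3 fell, with a median of -0.01. Ccl9, a chemokine of myeloid cells, read 10.68, 9.91, 10.73 and 11.14 on the 4 FSP1 ablated arrays and 11.68, 12.54 and 11.72 on the 3 aSMA ablated arrays, a difference of -1.37 (SE 0.26, adjusted p = 0.00991). Pf4, the platelet factor, differed by -0.71 (SE 0.19, adjusted p = 0.0428). Pdgfb, the growth factor that drives stellate cell division, read 6.26 to 6.66 on the FSP1 ablated arrays and 6.92 to 7.08 on the aSMA ablated arrays, a difference of -0.54 (SE 0.12, adjusted p = 0.0201), while its second probe differed by -0.02. Groups did not overlap for the probes used. Ccl9 missed the threshold without aSMA ablated array 2 (adjusted p up to 0.0727), Pdgfb missed the threshold without FSP1 ablated array 2 and aSMA ablated arrays 1 and 2 (adjusted p up to 0.105), and the call for Pf4 was lost in each of the 7 repeats (adjusted p up to 0.182). Of 10 Kupffer cell markers 0 passed with limma and 5 lay under an unadjusted p of 0.05, as did 20% of all genes tested. Their median was 0.24. Clec4f, which is confined to Kupffer cells in mice, read 9.56 to 9.73 on the FSP1 ablated arrays and 9.004 to 9.68 on the aSMA ablated arrays (0.34, SE 0.13, adjusted p = 0.162) and passed without aSMA ablated array 1 (adjusted p = 0.0462). Of 13 neutrophil, 18 T and NK cell, 10 B cell and 28 endothelial markers 0 passed with limma, with medians of 0.08, -0.06, -0.14 and 0.12. Under an unadjusted p of 0.05 lay 3, 2, 4 and 3 of them, to be read against the same 20% of all genes. Among the T and NK cell and the B cell markers 4 each lay above background on all 7 arrays, so the others bear little on these cells.

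Fatty acid synthesis held the largest rise. Elovl6, which elongates palmitate to stearate, read 11.69, 12, 11.99 and 9.69 on the 4 FSP1 ablated arrays and 9.51, 8.71 and 8.21 on the 3 aSMA ablated arrays. FSP1 ablated arrays 1 to 3 stood far above every aSMA ablated array, array 4 stood just above them by 0.18 log2 units, and the rise was 5.78-fold, a difference of 2.53 (SE 0.55, adjusted p = 0.0185). Acaca, the acetyl-CoA carboxylase that commits carbon to fatty acids, read 12.86, 13.26, 12.40 and 11.62 on the 4 FSP1 ablated arrays and 10.80, 10.66 and 10.50 on the 3 aSMA ablated arrays, a difference of 1.88 (SE 0.34, adjusted p = 0.00781). Its groups did not overlap, the CCl4 arrays read 10.12 to 11.30, and the call held without each array. Fasn, the fatty acid synthase, read 7.69, 7.97, 7.81 and 6.65 on the 4 FSP1 ablated arrays and 6.68, 6.34 and 6.40 on the 3 aSMA ablated arrays, and array 4 of the FSP1 ablated group lay just below the highest aSMA ablated array (difference 1.06, SE 0.24, adjusted p = 0.0239). Agpat2, which adds the second acyl chain on the way to triglyceride, read 11.04, 10.98, 10.53 and 10.83 on the 4 FSP1 ablated arrays and 9.80, 10.39 and 9.90 on the 3 aSMA ablated arrays, a difference of 0.82 (SE 0.18, adjusted p = 0.0236).

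Of 29 measured genes of fatty acid and triglyceride synthesis 4 rose, 1 fell, which was Lpin2, and the median was 0.25. Srebf1 and Mlxipl, the transcription factors that drive the pathway, did not pass. The count of rises was 1 without FSP1 ablated array 2 or aSMA ablated array 3, and 7 without FSP1 ablated array 4. Elovl6 missed the threshold without FSP1 ablated array 2 and aSMA ablated arrays 2 and 3 (adjusted p up to 0.0906), Fasn missed the threshold without FSP1 ablated arrays 1 and 2 and aSMA ablated arrays 2 and 3 (adjusted p up to 0.116), and Agpat2 missed the threshold without FSP1 ablated arrays 1 and 2 and aSMA ablated arrays 1 and 3 (adjusted p up to 0.0912). With the Alb set as a block all 5 calls were lost, and the median was 0.52.

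In sugar metabolism 2 of 28 measured genes rose and 1 fell, with a median of 0.08. Pklr, the pyruvate kinase of liver, read 10.15, 10.53, 9.99 and 8.10 on the 4 FSP1 ablated arrays and 6.81, 7.66 and 7.47 on the 3 aSMA ablated arrays. Every FSP1 ablated array was above every aSMA ablated array, array 4 was the lowest of its group as it was for Elovl6, Acaca and Fasn, and the rise was 5.20-fold, a difference of 2.38 (SE 0.48, adjusted p = 0.0129). Khk, which phosphorylates fructose, read 14.06, 14.31, 14.05 and 13.52 on the 4 FSP1 ablated arrays and 13.10, 12.40 and 12.90 on the 3 aSMA ablated arrays, a difference of 1.18 (SE 0.28, adjusted p = 0.0265). Tkfc, which takes up the next product of fructose, read 12.31 to 13.06 on the FSP1 ablated arrays and 11.37 to 11.62 on the aSMA ablated arrays without overlap and missed the threshold (1.26, SE 0.36, adjusted p = 0.0591). Hk3, a hexokinase of myeloid cells, was lower, at 6.46 to 6.69 on the FSP1 ablated arrays and 7.46 to 7.80 on the aSMA ablated arrays, a difference of -1.10 (SE 0.24, adjusted p = 0.0194). Pdhb, a subunit of pyruvate dehydrogenase that links glycolysis to acetyl-CoA, read 10.35, 11.33, 10.41 and 9.71 on the 4 FSP1 ablated arrays and 8.56, 8.74 and 8.68 on the 3 aSMA ablated arrays, a difference of 1.79 (SE 0.36, adjusted p = 0.0125). Pklr missed the threshold without aSMA ablated arrays 1 and 2 (adjusted p up to 0.0540), Khk missed the threshold without FSP1 ablated arrays 1 and 2 and aSMA ablated arrays 2 and 3 (adjusted p up to 0.148), Hk3 missed the threshold without FSP1 ablated array 2 and aSMA ablated arrays 1, 2 and 3 (adjusted p up to 0.0753), and Pdhb missed the threshold without aSMA ablated array 2 (adjusted p up to 0.0602).

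Some genes of cholesterol synthesis and uptake were lower. Of 21 measured genes 4 fell and 0 rose, 16 had differences below 0, and the median was -0.57. Hmgcs1, which makes the substrate of the rate-limiting reductase, read 12.51, 12.70, 12.18 and 11.92 on the 4 FSP1 ablated arrays and 13.48, 13.36 and 12.77 on the 3 aSMA ablated arrays, a difference of -0.87 (SE 0.21, adjusted p = 0.0340). Lss, which closes the sterol rings, read 8.38, 8.68, 7.66 and 7.62 on the 4 FSP1 ablated arrays and 9.15, 9.77 and 9.06 on the 3 aSMA ablated arrays, a difference of -1.24 (SE 0.33, adjusted p = 0.0472). Dhcr7, which catalyses the last step to cholesterol, read 8.22, 7.88, 7.83 and 7.33 on the 4 FSP1 ablated arrays and 9.11, 9.88 and 9.12 on the 3 aSMA ablated arrays, a difference of -1.56 (SE 0.31, adjusted p = 0.0120). The groups did not overlap for these 3 genes or for Ebp, a sterol isomerase, which differed by -1.02 (SE 0.23, adjusted p = 0.0239). CCAAT letters were found in the promoter windows of 17 of 18 genes of the list (94.4%) and SRE letters in 1, that of Hmgcs1 shown above, where 1.22% of all genes hold them. Hmgcs1 missed the threshold without FSP1 ablated arrays 3 and 4 and aSMA ablated arrays 1 and 2 (adjusted p up to 0.153), Lss missed the threshold without FSP1 ablated arrays 1, 3 and 4 and aSMA ablated arrays 1, 2 and 3 (adjusted p up to 0.213), Dhcr7 missed the threshold without aSMA ablated array 2 (adjusted p up to 0.0840), and Ebp missed the threshold without FSP1 ablated array 2 and aSMA ablated arrays 2 and 3 (adjusted p up to 0.136). Without aSMA ablated array 2, and also with the Alb set as a block, all 4 calls were lost.

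Fatty acid breakdown and lipid storage changed in few genes. Of 30 measured genes of fatty acid oxidation 2 fell, with a median of -0.23. Ehhadh, the bifunctional enzyme of peroxisomes, read 7.41 to 8.91 on the FSP1 ablated arrays and 9.13 to 9.26 on the aSMA ablated arrays, a difference of -0.98 (SE 0.26, adjusted p = 0.0423). Creb3l3, a transcription factor of fasting liver, read 10.04 to 10.32 on the FSP1 ablated arrays and 10.82 to 11.29 on the aSMA ablated arrays, a difference of -0.82 (SE 0.22, adjusted p = 0.0434). Both were lower on every FSP1 ablated array, and both calls were fragile. Ehhadh missed the threshold without FSP1 ablated arrays 1, 2 and 4 and aSMA ablated arrays 1, 2 and 3 (adjusted p up to 0.136), and that for Creb3l3 was lost in each of the 7 repeats (adjusted p up to 0.155). Abhd5, the coactivator of triglyceride lipase, was higher at 8.96, 8.90, 8.86 and 8.78 on the 4 FSP1 ablated arrays and 8.48, 8.33 and 8.42 on the 3 aSMA ablated arrays, a small difference of 0.47 (SE 0.09, adjusted p = 0.00845), and Abhd5 missed the threshold without aSMA ablated array 2 (adjusted p up to 0.0602).

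**Figure D5:**
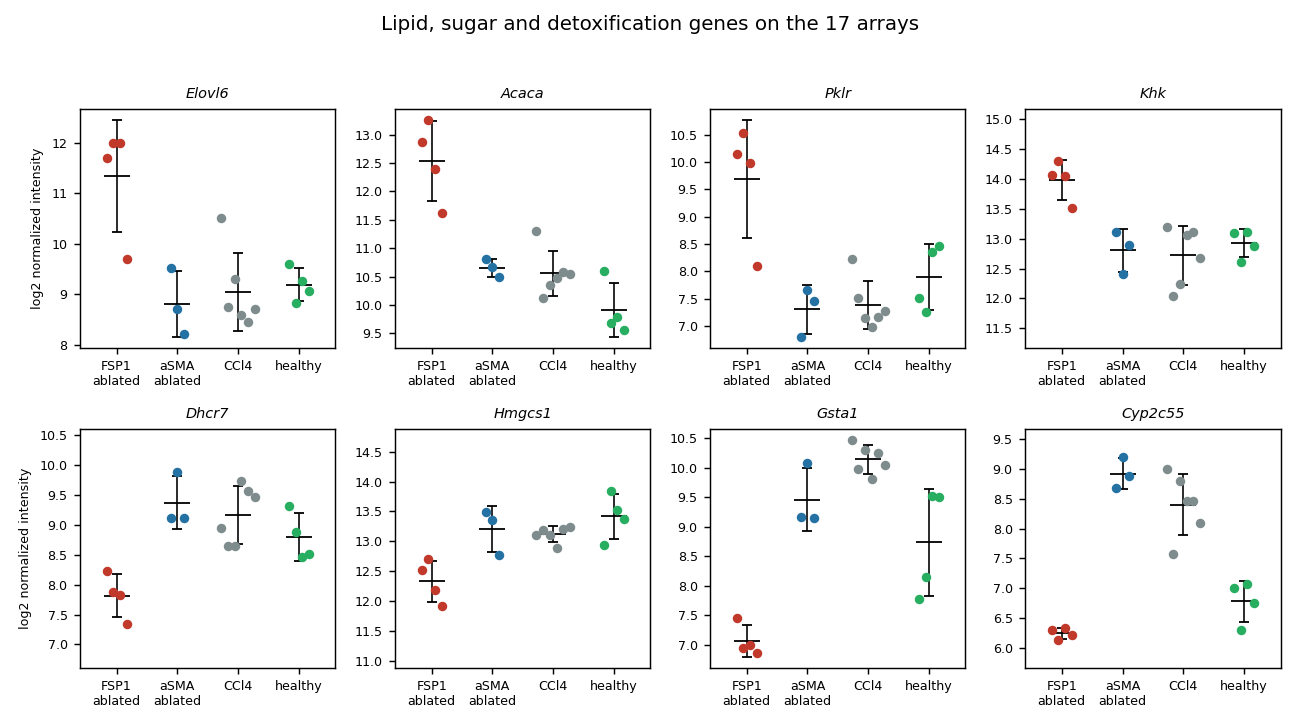
Level (vertical axis, log2 normalized intensity, each panel with its own range of at least 4 units) of lipid, sugar and detoxification genes on each of the 17 arrays, grouped along the horizontal axis, with the mean and SD of each group in black. Elovl6, Acaca, Pklr and Khk are higher on the FSP1 ablated arrays than on the aSMA ablated arrays, with array 4 the lowest of the 4, and Dhcr7, Hmgcs1, Gsta1 and Cyp2c55 are lower.

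Among detoxification genes 4 glutathione transferases fell. Of 39 measured glutathione transferases and NRF2-regulated genes 4 fell and 0 rose, with a median of -0.23. Gsta1, an alpha class glutathione transferase, read 7.46, 6.94, 6.99 and 6.86 on the 4 FSP1 ablated arrays and 9.16, 10.07 and 9.14 on the 3 aSMA ablated arrays. The groups were 1.69 log2 units apart at their nearest arrays, the FSP1 ablated arrays also lay below the 7.78 to 9.51 of the healthy arrays, and the fall was 5.27-fold, a difference of -2.40 (SE 0.37, adjusted p = 0.00365). Gsta2, a close copy whose probe may read the same transcripts, read 8.25, 7.67, 8.91 and 6.83 on the 4 FSP1 ablated arrays and 9.75, 10.02 and 9.65 on the 3 aSMA ablated arrays, a difference of -1.89 (SE 0.36, adjusted p = 0.0105). Gsta4, which clears products of lipid peroxidation, read 9.24, 8.64, 10.29 and 8.65 on the 4 FSP1 ablated arrays and 11.07, 10.85 and 10.87 on the 3 aSMA ablated arrays, a difference of -1.72 (SE 0.32, adjusted p = 0.00897). Mgst3, a microsomal member, read 10.08, 9.88, 10.11 and 9.38 on the 4 FSP1 ablated arrays and 10.81, 10.86 and 10.73 on the 3 aSMA ablated arrays, a difference of -0.94 (SE 0.14, adjusted p = 0.00349). None of the 4 overlapped between the groups. Gsta1 and Mgst3 passed without each array, and Gsta2 and Gsta4 missed it without aSMA ablated array 2 (adjusted p = 0.0672 and 0.0502).

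Of 60 measured cytochrome P450 and phase II genes 3 rose and 2 fell, with a median of -0.18 that was 0.05 with the Alb set as a block. Cyp2c55, a P450 induced by xenobiotics, read 6.30, 6.14, 6.34 and 6.21 on the 4 FSP1 ablated arrays and 8.67, 9.20 and 8.88 on the 3 aSMA ablated arrays. The FSP1 ablated arrays were nearly alike and 2.33 log2 units below the lowest aSMA ablated array, the fall was 6.36-fold with a difference of -2.67 (SE 0.27, adjusted p = 0.000121), and the call held in each repeat. Aldh1a1, which makes retinoic acid, read 10.16 to 11.26 on the FSP1 ablated arrays and 11.85 to 12.10 on the aSMA ablated arrays, a difference of -1.24 (SE 0.31, adjusted p = 0.0379), and Aldh1a1 missed the threshold without FSP1 ablated arrays 1, 2 and 4 and aSMA ablated arrays 1, 2 and 3 (adjusted p up to 0.125). Cyp26a1, which degrades retinoic acid, was higher at 6.59, 6.87, 6.88 and 6.80 on the 4 FSP1 ablated arrays and 6.08, 6.18 and 6.07 on the 3 aSMA ablated arrays, a difference of 0.68 (SE 0.14, adjusted p = 0.0175), and Cyp26a1 missed the threshold without FSP1 ablated array 2 and aSMA ablated arrays 1, 2 and 3 (adjusted p up to 0.0651). Ugt3a2 also rose. Cyp2e1, the P450 that turns CCl4 into its reactive form, read 13.83, 13.58, 14.48 and 13.73 on the 4 FSP1 ablated arrays and 14.20, 13.52 and 14.23 on the 3 aSMA ablated arrays. Its groups overlapped and the difference was -0.08 (SE 0.45, adjusted p = 0.953). The transporter gene Abcc2, which exports conjugates into bile, differed by -0.66 (SE 0.12, adjusted p = 0.00900), the 1 of 25 genes of bile acid handling to pass, and Abcc2 missed the threshold without aSMA ablated array 2 (adjusted p up to 0.0672).

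Genes tied to the zones of the liver lobule passed in few cases. Of 25 measured periportal and urea cycle genes 3 fell, 0 rose and 22 did not pass, with a median of -0.45. All 3 calls were lost with the Alb set as a block, where the median was -0.20. Aldh1b1, a mitochondrial aldehyde dehydrogenase, read 8.98, 7.87, 10.29 and 9.19 on the 4 FSP1 ablated arrays and 11.27, 11.78 and 11.30 on the 3 aSMA ablated arrays, a difference of -2.37 (SE 0.45, adjusted p = 0.00905). Hsd17b6, which acts on steroids and retinoids, read 8.51, 7.26, 9.23 and 8.66 on the 4 FSP1 ablated arrays and 10.07, 10.49 and 10.32 on the 3 aSMA ablated arrays, a difference of -1.88 (SE 0.41, adjusted p = 0.0199). Igfbp2, which binds insulin-like growth factors, read 9.28, 9.02, 10.50 and 9.53 on the 4 FSP1 ablated arrays and 11.71, 11.86 and 11.53 on the 3 aSMA ablated arrays, a difference of -2.12 (SE 0.56, adjusted p = 0.0436), and with the Alb set as a block it differed by -0.20. The groups did not overlap for any of the 3, and enzymes of the urea cycle did not pass. Aldh1b1 missed the threshold without aSMA ablated array 2 (adjusted p up to 0.0649), Hsd17b6 missed the threshold without aSMA ablated arrays 2 and 3 (adjusted p up to 0.104), and Igfbp2 missed the threshold without FSP1 ablated arrays 1, 2 and 4 and aSMA ablated arrays 1, 2 and 3 (adjusted p up to 0.166). Among 19 pericentral genes 1 rose, Rhbg, an ammonium transporter, at 7.89, 8.42, 8.53 and 7.59 on the 4 FSP1 ablated arrays and 7.35, 6.54 and 6.87 on the 3 aSMA ablated arrays, a difference of 1.19 (SE 0.24, adjusted p = 0.0125), and Rhbg missed the threshold without aSMA ablated array 2 (adjusted p up to 0.0901).

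Secreted hepatocyte proteins moved little as a list. Of 31 measured genes 1 rose and 1 fell, the median was -0.01, and the mean over the list was 13.02 to 13.13 on the FSP1 ablated arrays and 13.13 to 13.19 on the aSMA ablated arrays. Fetub, a protease inhibitor of plasma, read 12.51, 13.15, 12.52 and 13.09 on the 4 FSP1 ablated arrays and 12.09, 11.75 and 12.08 on the 3 aSMA ablated arrays, a difference of 0.84 (SE 0.21, adjusted p = 0.0360), and Fetub missed the threshold without FSP1 ablated arrays 2 and 4 and aSMA ablated arrays 1, 2 and 3 (adjusted p up to 0.172). The probe for Alb read 6.57, 6.41, 6.66 and 6.49 on the 4 FSP1 ablated arrays and 8.83, 9.26 and 8.93 on the 3 aSMA ablated arrays, a difference of -2.47 (SE 0.59, adjusted p = 0.0293). The healthy arrays read 6.29 to 6.75 and the CCl4 arrays 6.45 to 9.33, so this probe was near background on healthy liver, the organ that makes albumin. The SD of Alb was 0.10 on the FSP1 ablated, 0.22 on the aSMA ablated and 1.34 on the CCl4 arrays. All groups share 1 estimate of the spread, so the p-values for Alb draw on the spread of the CCl4 arrays. Alb missed the threshold without FSP1 ablated arrays 1, 2 and 4 and aSMA ablated arrays 1, 2 and 3 (adjusted p up to 0.129). With the Alb set as a block its difference was -0.07, which was fixed in advance because the set was cut from this probe's own values. Hamp, the iron hormone hepcidin and an acute phase protein, rose, reading 13.82, 14.01, 13.77 and 13.42 on the 4 FSP1 ablated arrays and 11.72, 12.93 and 12.66 on the 3 aSMA ablated arrays, a difference of 1.32 (SE 0.30, adjusted p = 0.0226). It was the 1 of 24 acute phase genes to pass, and Hamp missed the threshold without FSP1 ablated array 2 and aSMA ablated array 1 (adjusted p up to 0.0890).

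Car3, carbonic anhydrase of the hepatocyte cytosol, had the largest fall. It read 9.36, 6.74, 9.88 and 6.95 on the 4 FSP1 ablated arrays and 11.58, 12.12 and 11.95 on the 3 aSMA ablated arrays, with FSP1 ablated arrays 2 and 4 far below arrays 1 and 3, and a difference of -3.65 (SE 0.93, adjusted p = 0.0388). Car3 missed the threshold without FSP1 ablated arrays 2 and 4 and aSMA ablated arrays 1, 2 and 3 (adjusted p up to 0.148). Cyp17a1, a steroid hydroxylase listed here as female-biased, rose 5.62-fold, from 9.32, 10.34 and 9.66 on the aSMA ablated arrays to 12.26, 11.91, 11.57 and 13.33 on the FSP1 ablated arrays, a difference of 2.49 (SE 0.63, adjusted p = 0.0371). Cux2, a transcription factor of female liver, read 8.13, 8.29, 8.72 and 8.82 on the 4 FSP1 ablated arrays and 6.57, 6.49 and 7.10 on the 3 aSMA ablated arrays. The groups were 1.03 log2 units apart at their nearest arrays, the difference was 1.77 (SE 0.16, adjusted p = 4.08e-05), and the call held in each repeat, while its 2 other, dimmer probes differed by 0.45 and 0.18. Cyp17a1 missed the threshold without FSP1 ablated arrays 1, 2 and 4 and aSMA ablated arrays 1, 2 and 3 (adjusted p up to 0.116). Of 18 measured female-biased genes these 2 rose and Hao2, a peroxisomal oxidase, fell (-1.11, adjusted p = 0.0361), with a median of 0.10, and Hao2 missed the threshold without FSP1 ablated arrays 1, 2 and 4 and aSMA ablated arrays 1, 2 and 3 (adjusted p up to 0.118). Of 24 male-biased genes 0 passed with limma and 5 lay under an unadjusted p of 0.05, about the 20% of all genes tested, with a median of -0.10. That median became 0.82 under the Alb block, and the median of the female-biased list was -0.06 in place of 0.10. The mean over the male-biased list was 7.86 to 8.33 on the FSP1 ablated and 8.17 to 8.31 on the aSMA ablated arrays, against 10.73 to 10.91 on the healthy arrays. It was 9.76 and 9.71 on CCl4 arrays 5 and 6, and 8.07 to 8.49 on CCl4 arrays 1 to 4. The mean over the female-biased list was 7.35 and 7.34 on CCl4 arrays 5 and 6, and 8.05 to 8.09 on CCl4 arrays 1 to 4. The Alb block is estimated from the CCl4 arrays alone, so both medians under it depend on this split. The difference in Xist was given above, and its part in these calls was not tested.

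The remaining genes with the largest rises belong to no single pathway. Ank, a transporter that moves pyrophosphate and citrate out of cells, read 10.16, 10.66, 10.25 and 10.15 on the 4 FSP1 ablated arrays and 8.53, 8.24 and 8.60 on the 3 aSMA ablated arrays, a difference of 1.85 (SE 0.13, adjusted p = 2.85e-06). Extl1, a glycosyltransferase related to heparan sulphate synthesis, read 9.41, 9.95, 9.21 and 9.40 on the 4 FSP1 ablated arrays and 8.12, 7.14 and 7.74 on the 3 aSMA ablated arrays, a difference of 1.83 (SE 0.27, adjusted p = 0.00349). The groups were 1.55 and 1.09 log2 units apart at their nearest arrays, and both passed in each repeat. Slc6a9, a glycine transporter, read 10.74, 11.85, 10.53 and 10.38 on the 4 FSP1 ablated arrays and 9.30, 8.53 and 9.35 on the 3 aSMA ablated arrays, a difference of 1.81 (SE 0.31, adjusted p = 0.00677). Aqp11, an aquaporin of the endoplasmic reticulum, read 11.72, 12.52, 11.74 and 10.85 on the 4 FSP1 ablated arrays and 9.58, 9.86 and 10.44 on the 3 aSMA ablated arrays, a difference of 1.75 (SE 0.31, adjusted p = 0.00733). Neither overlapped between the groups. Cabp2, a calcium-binding protein, Atp2b2, a calcium pump of the plasma membrane, and Lrrc28, a leucine-rich repeat protein, were higher, Cabp2 by 1.68, adjusted p = 0.0301, Atp2b2 by 1.61, adjusted p = 0.0287 and Lrrc28 by 1.35, adjusted p = 0.0333. FSP1 ablated array 2 was the highest of its group for Cabp2 and Atp2b2. Slc6a9 and Aqp11 missed the threshold without aSMA ablated array 2 (adjusted p = 0.0503 and 0.0502). Cabp2 missed the threshold without FSP1 ablated array 1 and aSMA ablated arrays 1, 2 and 3 (adjusted p up to 0.117), Atp2b2 missed the threshold without FSP1 ablated arrays 1 and 2 and aSMA ablated arrays 2 and 3 (adjusted p up to 0.116), and Lrrc28 missed the threshold without FSP1 ablated arrays 2 and 3 and aSMA ablated arrays 1, 2 and 3 (adjusted p up to 0.161).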

How the data were processed

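RNA of whole mouse liver was measured on 17 Illumina bead arrays. Per the labels, RNA was extracted with Trizol and labelled with biotin through an Ambion kit. The authors deposited 1 intensity value per probe and array. GenomeStudio is the program named in the submitters' processing notes, and any background correction or normalization behind the values is not stated in the labels or files. Another table was not used, because its 34 columns match no label.

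Deposited intensities were corrected with limma's normexp (offset 50), quantile normalized and put on the log2 scale (limma 3.58.1, R 4.3.3). A probe was kept where it exceeded the 95th percentile of its array's background, taken from the mode and the values below it, on at least 3 arrays, which left 17897 of 25697. Of all probes 23978 have 1 symbol, 0 several and 1719 none, and 23962 Entrez identifiers matched RefSeq with 0 symbols changed. The brightest probe stood for a gene, giving 13172 genes, 1095 of them probes without a symbol.

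One limma fit with 4 groups on all 17 arrays gave two-sided p-values, which were adjusted by the Benjamini-Hochberg method across all 13172 genes and called below 0.05. The fit was first tested on simulated data. Named genes were the 15 largest rises and 15 largest falls among genes that passed with 1 symbol and no overlap, up to 4 members per list by smallest p, and S100a3, S100a4, Acta2, Col1a1, Col3a1, Timp1, Cyp2e1, Alb and Xist; further list members are named without values. The groups compared, the lists and these rules were chosen with earlier results of these data known. Probe sets, scaling, filters, variance models, blocks and left-out arrays were varied. A fold given as "at least" takes as the dim group's level, array by array, whichever is higher of the probe itself and the dimmest probe above background. Promoter windows are from RefSeq.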

Additional observations from a re-analysis of the deposited data

Results flagged for a closer look

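Single arrays stood apart from the rest of their group for 18 of the genes named, judged by the gap to the nearest array against the range of the group (Dixon's test). Chance gives such a reading in about 1 in 20 groups, and 20 readings came from 327 groups examined; the 3 aSMA ablated arrays are too few for it. Within the FSP1 ablated group, array 1 was high for collagens and a histone, at 7.431 for Col1a1, 8.237 for Col5a1, 6.805 for Col6a2, 6.559 for Col4a5 and 9.592 for H2ac24. Array 2 was low for Creb3l3 at 10.04, array 3 was low for S100a11 at 9.355, and array 4 was low for Elovl6 at 9.688. Without FSP1 ablated array 1 the difference in Col1a1 was -2.15 in place of -1.95, and without array 4 that in Elovl6 was 3.08 in place of 2.53. Among the CCl4 arrays, array 4 was low for 3 histone genes, at 10.53 for H2ac24, 9.21 for H2ac10 and 8.603 for H2ac22, and also for Uhrf1 at 8.508 and Ebp at 11.26, while array 1 was high for Fasn at 6.835. Among the healthy arrays, array 2 was high for Lgals3 at 10.14 and Mmp12 at 8.033 and low for Aqp11 at 9.782, array 1 was high for Nid1 at 7.492, and array 4 was low for S100a11 at 8.019 and Dhx58 at 7.52. CCl4 and healthy arrays enter the comparison through the shared estimate of the spread, the joint quantile normalization, the filter on dim probes and the choice of the brightest probe.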

How the results depend on the processing

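No call among the 580 changed sign under any alternative. With 1 array left out this was all but fixed in advance for the 568 without overlap between the groups. The number of calls moved with several of the alternatives. Array weights gave 2560 calls (1280 higher, 1280 lower). Splitting CCl4 arrays 1 to 3 from 4 to 6 gave 1163 (511 and 652), and the Alb set as a block 305 (104 and 201). Without normalization between arrays 544 were lower and with median centring 633, and with the 13 CCl4-treated arrays alone 162 were higher. Leaving out 1 array gave 77 to 683 calls, 32 to 312 higher and 45 to 371 lower. It gave 77 without aSMA ablated array 2, 206 without FSP1 ablated array 2, 229, 321 and 367 without aSMA ablated arrays 3 and 1 and FSP1 ablated array 1, and 213 lower without FSP1 ablated array 4. Of the 94 named genes that passed, 21 passed in each of these 7 repeats and 70 lost the call without aSMA ablated array 2. With the Alb set as a block 29 of the 94 kept it, among them S100a3, Ank, Cyp2c55, E2f1 and Tk1. The difference in Cyp2e1, which had not passed, was -0.08, turned to 1.41 with the Alb block and ranged from -0.308 to 0.0476 with 1 array left out, above 0 without FSP1 ablated array 2 or aSMA ablated array 1 or 3. The medians of the iron and the heat shock lists changed sign with scaling. Where a cause is not part of the alternative itself, it was not tested.

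Nothing in the labels says that the replicate numbers of the titles pair the arrays. The deviations of same-numbered arrays correlated at 0.0165, 0.173 and 0.253, and those of differently numbered arrays at -0.2885 to 0.2085. So few arrays cannot decide whether the numbers pair them. With the number as a replicate block in the fit of all arrays 559 genes passed (210 higher, 349 lower), 409 of the 580 among them. An alternative chosen after seeing the data, the replicate block on the 7 ablated arrays alone, gave 0 calls in limma (0 higher, 0 lower), with 3029 genes at an unadjusted p under 0.05. That fit spends most of the 7 arrays on group and block terms and leaves little to estimate the spread, so its 0 calls do not show that the block removes the differences. The same 7 arrays without the block gave 676 calls, 362 of the 580 among them. Levels near background limit what can be measured.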

Other observations

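Of 30 measured genes of endoplasmic reticulum stress and ATF4, 21 had differences above 0 and 1 rose, with a median of 0.33. Atf4, the transcription factor itself, read 7.34, 7.84, 7.38 and 7.28 on the 4 FSP1 ablated arrays and 6.71, 6.62 and 6.65 on the 3 aSMA ablated arrays, a difference of 0.80 (SE 0.20, adjusted p = 0.0363) in limma's fit. All FSP1 ablated arrays lay above the aSMA ablated arrays, and Atf4 missed the threshold without FSP1 ablated arrays 1 and 2 and aSMA ablated arrays 1, 2 and 3 (adjusted p up to 0.140). Fgf21, a liver hormone that ATF4 can induce, read 10.19, 11.73, 8.49 and 7.33 on the 4 FSP1 ablated arrays and 7.36, 7.13 and 7.70 on the 3 aSMA ablated arrays. FSP1 ablated array 2 stood highest and array 4 lay within the aSMA ablated range, and the difference was 2.04 (SE 0.80, adjusted p = 0.160). Asns, the asparagine synthetase, read 9.81, 10.44, 6.62 and 9.25 on the 4 FSP1 ablated arrays and 7.48, 7.34 and 7.71 on the 3 aSMA ablated arrays, with FSP1 ablated array 3 below and the other 3 above the aSMA ablated arrays (1.52, SE 0.60, adjusted p = 0.164). Asns passed without FSP1 ablated array 3 (adjusted p = 0.000751).

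Of 9 measured erythroid genes 2 fell and 7 did not pass, 6 had differences below 0 and 3 above, and the median was -0.05. Both calls were lost with the Alb set as a block, where the median was -0.01. Hbb-b2, a beta globin, read 6.96, 5.93, 7.80 and 6.80 on the 4 FSP1 ablated arrays and 8.69, 7.87 and 8.15 on the 3 aSMA ablated arrays, a difference of -1.36 (SE 0.36, adjusted p = 0.0436) in limma's fit. Slc4a1, the anion exchanger of the red cell membrane, read 5.93, 5.86, 6.12 and 6.15 on the 4 FSP1 ablated arrays and 7.55, 6.76 and 7.54 on the 3 aSMA ablated arrays and was above background on 2 of the 4 FSP1 ablated arrays (-1.26, SE 0.29, adjusted p = 0.0254). FSP1 ablated array 2 was the lowest of the 7 for both. Hbb-b2 missed the threshold without FSP1 ablated arrays 1, 2 and 4 and aSMA ablated arrays 1, 2 and 3 (adjusted p up to 0.154), and Slc4a1 missed the threshold without FSP1 ablated arrays 1 and 2 and aSMA ablated arrays 1 and 3 (adjusted p up to 0.104). Globin genes are near-identical copies, so their probes may read one another's transcripts, and the amount of blood in each sample was not recorded in the labels.

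All 13 measured ribosomal protein genes had differences above 0, with a median of 0.20, and 28 of 32 respiratory chain genes had differences below 0, with a median of -0.17, while 0 genes of either list passed with limma. At an unadjusted p under 0.05, 2629 of the 13172 genes passed, which is 20%. Without normalization between arrays the 2 medians were 0.22 and -0.21, and with the Alb set as a block they were -0.03 and -0.09, so the direction of the ribosomal list turned. The mean over the ribosomal list was 12.28 to 12.84 on the FSP1 ablated arrays and 12.29 to 12.46 on the aSMA ablated arrays, so the groups overlapped. Of the 580 genes that passed, 38 were probes without a gene symbol, of which 13 differed by at least 2-fold.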
